A study of Homo sapiens with 2 samples.

Results

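The genes described here encode the enzymes that carry glucose to pyruvate and lactate, the proteins that admit pyruvate to the mitochondrion, and the pentose phosphate pathway. They are a set of 43 genes chosen by name from general knowledge of these pathways, with earlier results of these data known. Their probes were found through the gene symbols of the platform annotation. Of the 43 genes, 41 had a named probe, among 20046 named genes in all, and 36 were measured, meaning that at least 1 probe was detected in at least 1 array at a detection p of at most 0.01. The expression of the remaining pair, the lactate transporters SLC16A1 and SLC16A3, was not analysed here. The cells were A4573, an established line of Ewing sarcoma, a bone and soft tissue cancer whose driver is a fused transcription factor. One group was the parental wild-type culture and the other its radiation-adapted derivative, whose sample label carries 4 Gy without a schedule of irradiation or an interval before harvest. Each group was 1 sample of total RNA on 1 Illumina bead array, so no test between groups was possible, differences are described by size, and differences between cultures of the same kind cannot be told apart from adaptation.

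Glycolysis splits glucose into pyruvate and gains ATP without oxygen. Lactate dehydrogenase then regenerates the cofactor by making lactate, or pyruvate enters the mitochondrion and is oxidised by pyruvate dehydrogenase, which pyruvate dehydrogenase kinases switch off. The pentose phosphate pathway branches off at glucose-6-phosphate and yields NADPH, which serves antioxidant defence, and ribose for nucleotides. Many steps exist as isozymes from separate genes, and proliferating tumour cells often use the forms that respond to hypoxia and growth signals.

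Of 47323 probes, the wild-type array detected 37.8% and the adapted array 35.3%, and the dimmest detected probes read 152 and 158 intensity units. Of 8 markers of Ewing sarcoma, all 8 were detected in both arrays, with CD99, the surface antigen used in diagnosis, at 3900.4 and 3209.8 units. Of the leukocyte markers, PTPRC, CD3E and ITGAM were not detected and CD14 read 166 and 159, close to the detection limit. Of the epithelial markers, CDH1, KRT18 and KRT19 were not detected, while EPCAM read 224 and 280. All 4 fibroblast markers were detected in both arrays, 2 of them higher by 1.5-fold or more after adaptation and 2 lower; their part in the results below was not tested. Intensities are given as deposited, wild-type first, and differences are log2 adapted minus log2 wild-type after background correction and quantile normalisation. Because bright probes read somewhat higher in the adapted array before normalisation (a median log2 ratio of 0.17 over 2817 probes of at least 1000 units in both arrays), a probe of equal deposited intensity has a difference below 0. Probes differ in brightness for the same amount of RNA, so isozymes are compared by their differences and not by their levels. The 2 brightest probes of a gene gave an error within this pair of arrays. Over 2326 genes the SD per probe was 0.28 on the log2 scale. The gap between both probes had a median of 0.22 and stayed within 0.62 in 90% of the genes.

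Most genes of the group stood above their wild-type level by a small amount, and a few by a large one. Of 36 measured members, 10 were higher in the adapted array by 1.5-fold or more, against 11.8% of all 11296 measured genes, and 2 were lower by as much, against 12.2%. The median difference was 0.27, against 0.01 over all measured genes and 0.02 over those at or above the 75th percentile of brightness, which held 27 of the 36 members. In RNA from a whole culture, fewer cells that express a gene and less of its RNA per cell cannot be told apart. A difference above 0 was found for 28 of 36 members and for 50.4% of all measured genes. The 10 higher genes were ALDOC, HK2, ALDOA, ENO2, GPI, PGM2, PFKFB4, TPI1, LDHA and PDK3, and the 2 lower genes were HK1 and ENO3. At least 2-fold differences were found for 3 members above (2.76% of all measured genes) and 2 below (4.39%).

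**Figure D1:**
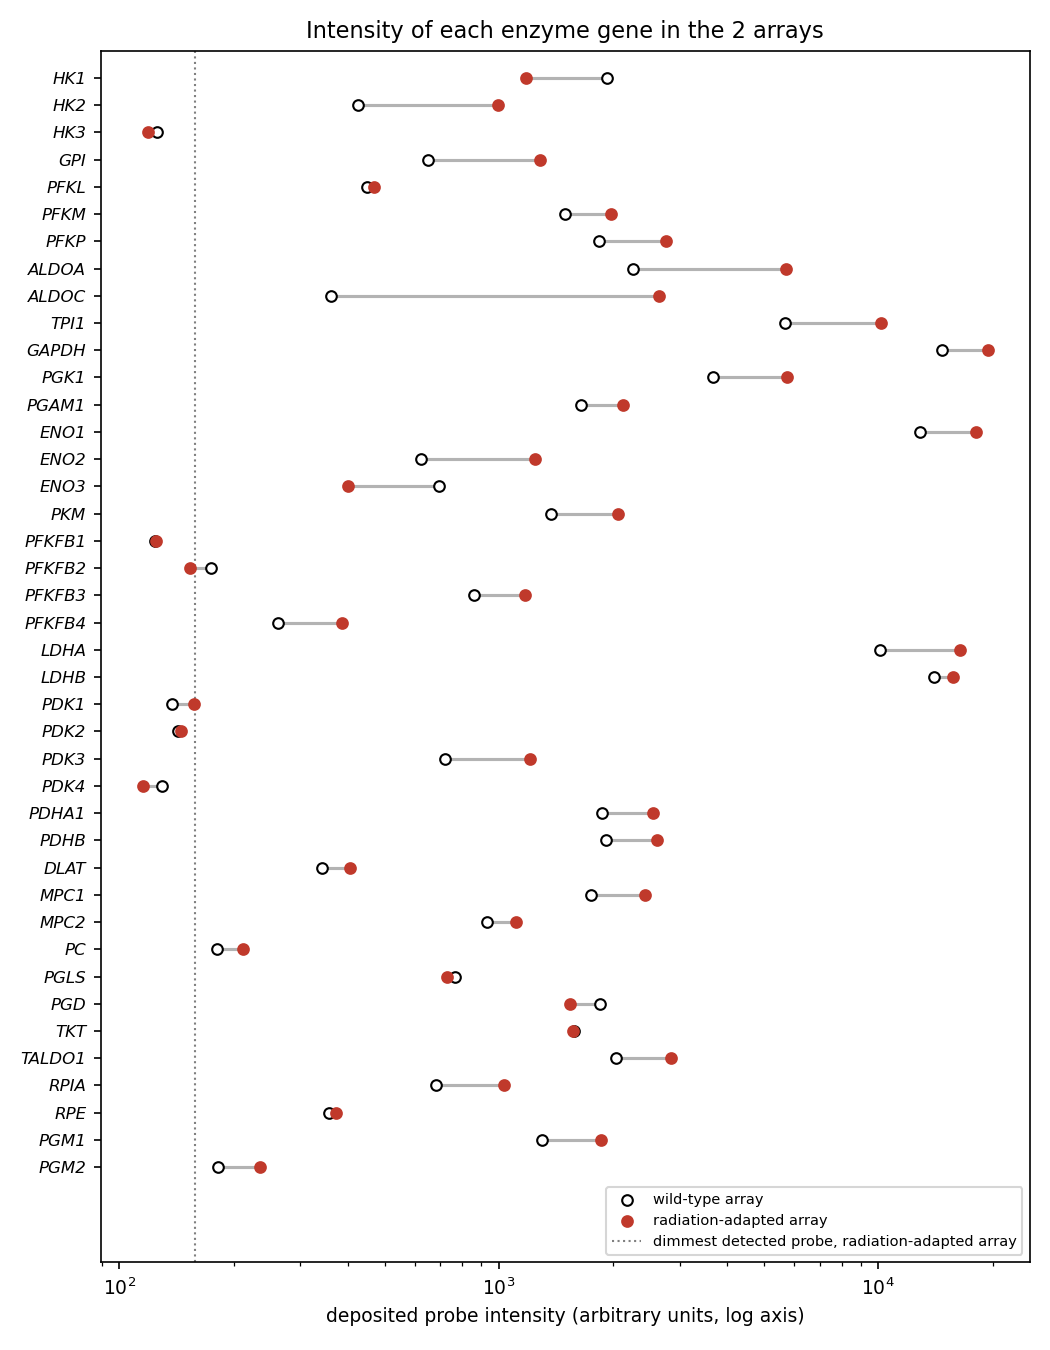
Deposited intensity (arbitrary units, log axis) of the probe that stands for each of 41 genes, with open circles for the wild-type array, filled circles for the radiation-adapted array and a line joining both. The line of ALDOC is the longest, from 361 to 2639.9 units. HK1 and ENO3 run in the opposite direction, as do some shorter lines such as that of PGD.

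**Figure D2:**
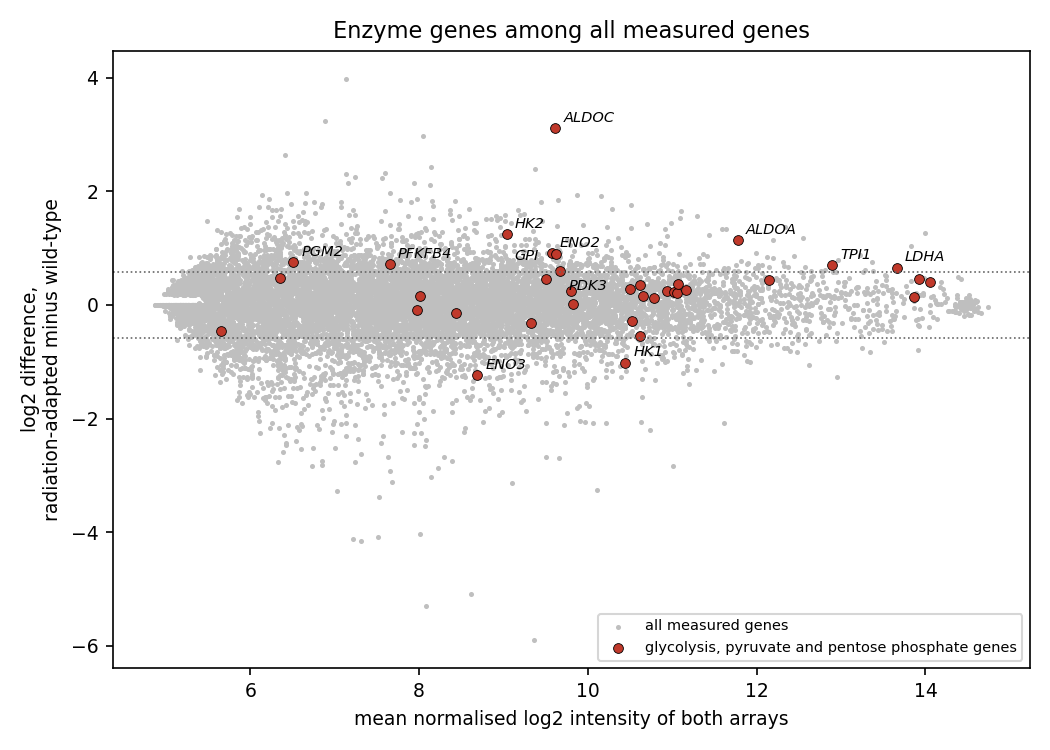
Difference between the arrays (log2, vertical axis) against the mean normalised log2 intensity of both arrays (horizontal axis) for 11296 measured genes in grey and the 36 measured enzyme genes in red, with dotted lines at 1.5-fold. ALDOC lies at 3.12, and the red points gather above 0 with HK1 and ENO3 below the lower line.

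Hexokinase, which traps glucose in the cell by phosphorylation, showed opposite differences in its isozymes. HK2, the form typical of muscle and many tumours, read 425 units in wild-type cells and 994 in adapted cells, a difference of 1.25 or 2.38-fold higher. HK1, the form found in most tissues, read 1925.7 and 1181.3 units, a difference of -1.02 or 2.02-fold lower. The isozymes were 2.27 apart on the log2 scale, over the 0.62 that bounds 90% of probe pairs of a gene. The second HK2 probe read 330 and 422 units with a difference of 0.32. The HK2 probes thus shared a direction but lay 0.93 apart, themselves beyond 0.62. Over the mean of detected probes HK2 stood at 0.78, and the isozymes were 1.61 apart. Of the 4 probes of HK1, the representative probe alone was detected in both arrays; a second one was detected in the wild-type array only (165 against 147 units). HK3, the form of blood cells, was not detected (126 and 119 units).

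The letters before the gene starts are shown because HK2 and HK1, a pair chosen after its values were seen, differ in a short motif. Hypoxia-inducible factor, HIF, a transcription factor known to induce many glycolytic genes, binds a core of ACGTG, which also lies within the CACGTG element bound by MYC and related factors. The motif was searched on both strands in the 250 bases before each start in the RefSeq promoter table (GRCh38.p14), and an ACGTG that overlaps its own reverse complement in CACGTG was counted as 1 place. Both windows of HK2 held 2 places each, and none of the 7 windows of HK1 held one. For each printed gene the window with the most places is shown, or the first along the chromosome on a tie. The letters run 5′ to 3′ on the gene's strand, and capitals mark the motif. All HK1 windows tied, so its first one is shown. Which start gave the measured RNA was not analysed here.
HK2, chr2:74833877-74834126, plus strand: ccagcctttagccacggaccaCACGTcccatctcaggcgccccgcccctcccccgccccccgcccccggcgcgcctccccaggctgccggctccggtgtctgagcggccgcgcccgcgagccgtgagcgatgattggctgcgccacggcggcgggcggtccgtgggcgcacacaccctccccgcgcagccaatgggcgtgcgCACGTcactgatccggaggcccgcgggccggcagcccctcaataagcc
HK1, chr10:69269750-69269999, plus strand: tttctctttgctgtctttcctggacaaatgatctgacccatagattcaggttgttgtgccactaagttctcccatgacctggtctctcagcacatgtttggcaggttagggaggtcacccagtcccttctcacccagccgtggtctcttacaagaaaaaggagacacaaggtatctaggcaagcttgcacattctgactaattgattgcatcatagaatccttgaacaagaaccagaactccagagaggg

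Glucose-6-phosphate isomerase, encoded by the single gene GPI, read 649 and 1287.6 units, with a difference of 0.89 or 1.86-fold higher. The phosphofructokinases, which commit the sugar to glycolysis, were all under 1.5-fold. The platelet form PFKP read 1833.1 and 2751 units with a difference of 0.36, the muscle form PFKM 1493.8 and 1976.3 units with 0.15, and the liver form PFKL 449 and 470 units with -0.15. Their spread of 0.51 exceeded the median gap of 0.22 between probe pairs of a gene but stayed under the 0.62 that bounds 90%. No order among the 3 forms is therefore read from it.

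The enzymes that make and break fructose-2,6-bisphosphate, the main activator of phosphofructokinase, were led by PFKFB4 at 263 and 387 units. Its difference was 0.72 or 1.65-fold higher, and 0.46 without background correction, which is under 1.5-fold. PFKFB3, the form with the strongest kinase activity, read 861 and 1171 units with a difference of 0.25 (0.11 in its second probe). PFKFB2, the heart form, was detected in the wild-type array only (174 and 154 units) and was at least 1.38-fold lower, a bound of -0.47 on the log2 scale that was -0.15 without background correction. Its detection p in the adapted array was 0.0156, close to the limit, and with a limit of 0.05 it was detected in both. A dimmer probe of PFKFB2 pointed the other way (138 and 158 units). PFKFB1, the liver form, was not detected.

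Aldolase, which splits fructose-1,6-bisphosphate into trioses, held the furthest member of all. ALDOC, the brain form, read 361 units in wild-type cells and 2639.9 in adapted cells, a difference of 3.12 or 8.67-fold higher, which ranked 1 from the top among 9840 genes detected in both arrays. ALDOC has 1 named probe, and its difference was 2.68 without background correction and 3.21 in the authors' processed values. ALDOA, the form of muscle and most tissues, read 2259.7 and 5702.3 units, a difference of 1.14 or 2.21-fold higher. Its second detected probe read 2094.7 and 3756.1 units with a difference of 0.62, and its other probes were not detected. Both isozymes were thus higher, 1.97 apart on the log2 scale. The window before the ALDOC start held the motif at 2 places, 240 and 28 bases before the start, and each of the 3 windows of ALDOA held it once. They are shown as the pair of isozymes that were both higher.
ALDOC, chr17:28576896-28577145, minus strand: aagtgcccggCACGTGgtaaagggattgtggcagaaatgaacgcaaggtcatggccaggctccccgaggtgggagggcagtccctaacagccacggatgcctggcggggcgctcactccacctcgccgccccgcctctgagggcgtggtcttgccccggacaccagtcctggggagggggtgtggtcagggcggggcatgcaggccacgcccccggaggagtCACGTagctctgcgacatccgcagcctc
ALDOA, chr16:30064029-30064278, plus strand: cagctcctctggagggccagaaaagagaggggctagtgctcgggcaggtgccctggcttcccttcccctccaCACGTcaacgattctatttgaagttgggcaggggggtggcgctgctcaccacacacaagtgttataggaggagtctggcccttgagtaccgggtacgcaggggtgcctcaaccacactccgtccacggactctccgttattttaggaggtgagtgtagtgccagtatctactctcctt

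In the following steps the trioses are oxidised and ATP is made, and of their genes TPI1 alone passed 1.5-fold. Triose phosphate isomerase, TPI1, read 5671.5 and 10145.4 units with a difference of 0.70 or 1.63-fold higher, and 0.45 in its second probe, and it was just under 1.5-fold over the mean of detected probes (0.58). GAPDH, the dehydrogenase often used as a reference gene, read 14696.6 and 19401.8 units in its brightest probe with a difference of 0.41, and 0.55 and 0.75 in its other probes. All 3 GAPDH probes were above 0, and the brightest gave the smallest difference. Phosphoglycerate kinase, PGK1, which makes the first ATP, read 3660.1 and 5748.7 units with a difference of 0.44. Its second probe read 805 and 1969.8 units with 1.16, so the probes lay 0.72 apart and on opposite sides of 1.5-fold. Phosphoglycerate mutase, PGAM1, had probes of opposite sign, at 0.12 and -0.43, and no direction is given for it. Pyruvate kinase, PKM, whose splice forms the annotation does not separate, read 1370.7 and 2059.1 units with a difference of 0.35, and 0.21 and 0.06 in its other probes. Several of these genes have processed pseudogenes of similar sequence, and PGAM4 (0.32) is a close copy of PGAM1. Whether their probes also bind such copies was not analysed here, so the values of GAPDH, PGK1, TPI1, PGAM1 and ENO1 are uncertain to that extent.

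Enolase, which makes phosphoenolpyruvate, again had isozymes on both sides of 0. ENO2, the neuronal form, read 625 units in wild-type cells and 1248.7 in adapted cells, a difference of 0.91 or 1.88-fold higher. ENO3, the muscle form, read 696 and 400 units, a difference of -1.24 or 2.36-fold lower, and its second probe gave -1.18 (224 and 164 units). ENO3 was thus lower in both probes, which lay 0.06 apart. Without background correction they stood further apart, at -0.97 and -0.48, the second under 1.5-fold. That second probe was close to the detection limit in the adapted array (detection p 0.0065). ENO1, the form of most tissues, read 12883 and 18110.9 units with a difference of 0.45. ENO2 and ENO3 were 2.15 apart. ENO2 and ENO1 were 0.46 apart, above the median gap of 0.22 between probe pairs of a gene but under the 0.62 that bounds 90%. The ENO2 window held the motif once and neither of the 2 windows of ENO3 held it. The pair is printed because its members differed in direction; the ENO1 window held no place either.
ENO2, chr12:6914330-6914579, plus strand: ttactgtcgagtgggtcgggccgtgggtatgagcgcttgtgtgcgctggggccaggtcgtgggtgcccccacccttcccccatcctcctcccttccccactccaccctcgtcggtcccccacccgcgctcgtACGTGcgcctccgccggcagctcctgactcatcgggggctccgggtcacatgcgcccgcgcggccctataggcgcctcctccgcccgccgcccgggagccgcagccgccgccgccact
ENO3, chr17:4950302-4950551, plus strand: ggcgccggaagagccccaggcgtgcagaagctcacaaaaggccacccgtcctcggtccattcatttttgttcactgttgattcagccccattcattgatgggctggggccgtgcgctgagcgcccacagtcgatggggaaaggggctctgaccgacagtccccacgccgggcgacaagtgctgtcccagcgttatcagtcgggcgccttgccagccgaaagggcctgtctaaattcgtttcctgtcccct

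**Figure D3:**
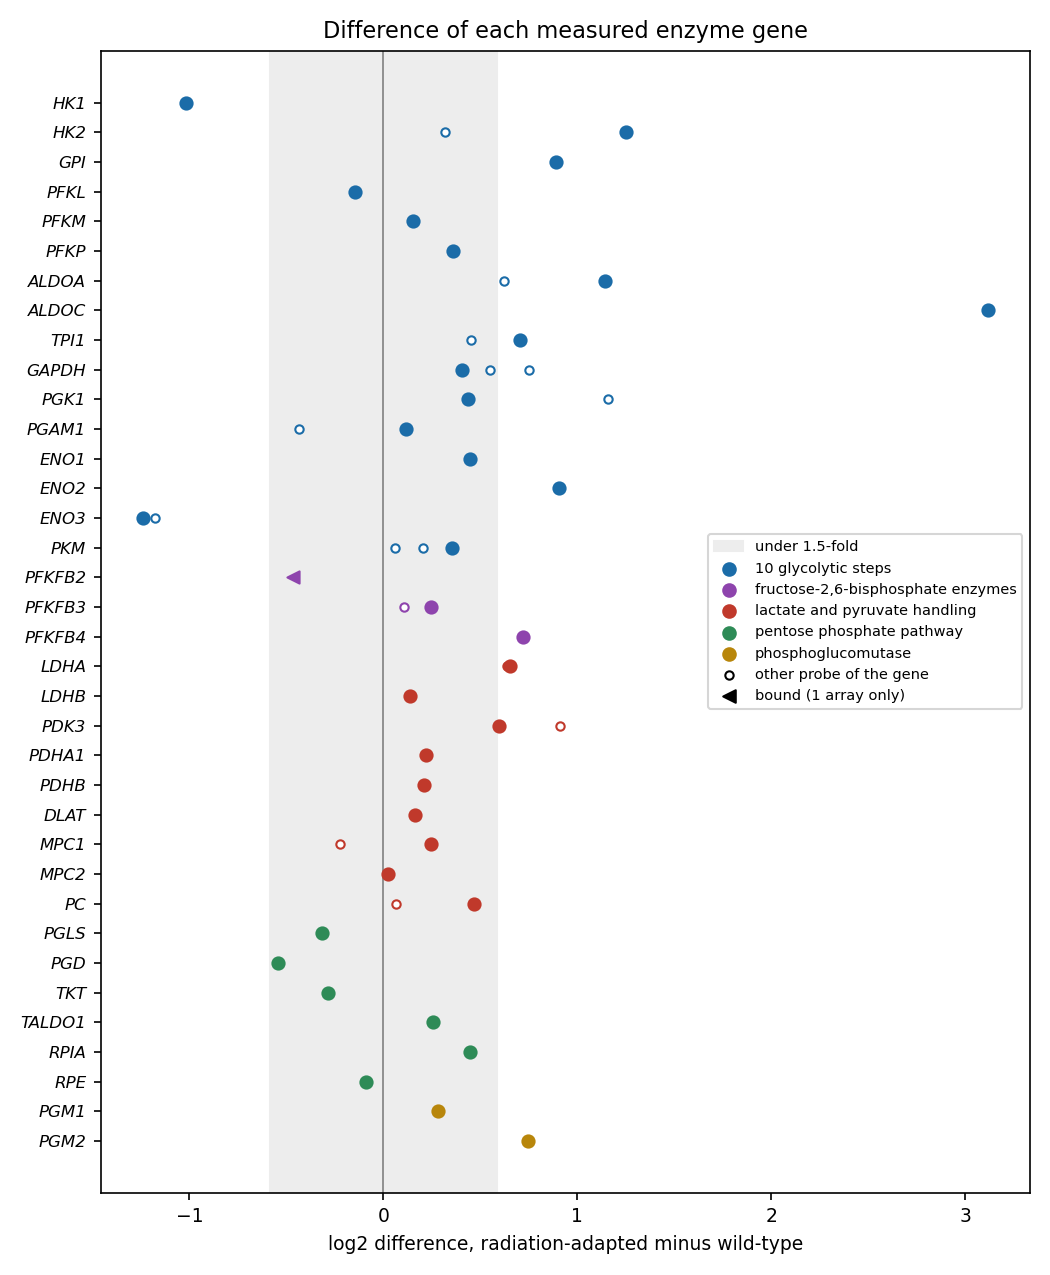
Log2 difference (horizontal axis) of each of the 36 measured genes, filled for the probe that stands for the gene and open for its other probes detected in both arrays, with colours for the parts of the pathway and grey for differences under 1.5-fold. HK1 and ENO3 lie left of the grey band, the pentose phosphate genes lie inside it, and ALDOC stands apart at 3.12.

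By group, the 10 steps from hexokinase to pyruvate kinase had 16 measured genes with a median of 0.42, of which 6 were higher by 1.5-fold or more and 2 lower. Both lower genes, HK1 and ENO3, belong to steps that also hold a gene higher by 1.5-fold or more.

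At the end of the path, the lactate dehydrogenase subunits differed less than the hexokinases. LDHA, the subunit that favours lactate production, read 10093.9 and 16373.9 units with a difference of 0.65 or 1.57-fold higher. Its second probe gave 0.64, and another, dimmer probe was detected in the adapted array only (148 and 196 units). LDHA was just under 1.5-fold with median scaling (0.53) and in the authors' processed values (0.53). LDHB, the subunit that favours pyruvate, read 13980.3 and 15767 units with a difference of 0.14. The subunits were 0.52 apart, above the median gap of 0.22 between probe pairs of a gene but under the 0.62 that bounds 90%. Over the mean of detected probes they were 0.68 apart. The motif stood at 3 places in 1 of the 2 windows of LDHA and at none in the window of LDHB, as printed here.
LDHA, chr11:18394313-18394562, plus strand: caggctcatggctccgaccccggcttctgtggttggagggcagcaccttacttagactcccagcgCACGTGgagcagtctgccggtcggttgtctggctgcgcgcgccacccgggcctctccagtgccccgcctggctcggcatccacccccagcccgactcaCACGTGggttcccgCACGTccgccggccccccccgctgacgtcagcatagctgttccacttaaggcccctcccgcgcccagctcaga
LDHB, chr12:21657843-21658092, minus strand: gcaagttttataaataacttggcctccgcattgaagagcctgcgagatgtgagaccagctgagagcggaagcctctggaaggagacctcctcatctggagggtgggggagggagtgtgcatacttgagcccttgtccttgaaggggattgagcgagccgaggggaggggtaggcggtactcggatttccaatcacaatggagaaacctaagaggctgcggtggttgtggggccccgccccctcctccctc

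Pyruvate dehydrogenase kinases, which shut pyruvate out of oxidation, were represented by PDK3 alone. PDK3 read 723 and 1208.7 units with a difference of 0.60 or 1.51-fold higher, just past 1.5-fold, and its second probe gave 0.91 (195 and 277 units). An offset of 50 put it under 1.5-fold, as did leaving out the background correction (0.53). PDK1 was not detected, at 137 units in wild-type cells and 157 in adapted cells, where its detection p of 0.0117 lay close to the limit. PDK2 (143 and 145 units) and PDK4 (130 and 116 units) were not detected either. The pyruvate dehydrogenase complex itself stood close together, with the E1 subunits PDHA1 at 0.22 and PDHB at 0.21 and the E2 subunit DLAT at 0.16. The mitochondrial pyruvate carrier subunits read 0.24 for MPC1 and 0.02 for MPC2, but the second MPC1 probe gave -0.23. Pyruvate carboxylase, PC, which feeds pyruvate into the tricarboxylic acid cycle as oxaloacetate, was dim at 181 and 211 units with a difference of 0.47, or 0.20 without background correction and 0.61, past 1.5-fold, in the authors' processed values. Of the 9 measured genes of lactate and pyruvate handling, 2 passed 1.5-fold above and 0 below, and the median was 0.22.

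The genes of the pentose phosphate pathway lay on both sides of 0. All 6 of its genes were measured, 0 passed 1.5-fold in either direction, and their median was -0.19. PGD, the dehydrogenase that releases NADPH and pentose, stood lowest, at 1846.1 and 1537.7 units with a difference of -0.54. PGLS, the lactonase that feeds it, read 768 and 732 units with -0.31. In the branch that interconverts sugars, transketolase, TKT, read 1582 and 1571.4 units with -0.28, while transaldolase, TALDO1, read 2036.2 and 2845.5 units with 0.25. RPIA, the isomerase that makes ribose-5-phosphate, read 683 and 1032.3 units with 0.45, and RPE, the epimerase, 356 and 371 units with -0.09. The genes of the pathway thus spanned 0.99 on the log2 scale. PGD and RPIA have 1 probe each, so most of the 7 processing alternatives could not change their signs. Under median scaling, which could, they stood at -0.46 and 0.51. Neither passed 1.5-fold under any alternative.

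Phosphoglucomutase, in its main form PGM1, links glucose-6-phosphate to glycogen. PGM1 read 1301.4 and 1861 units with a difference of 0.28. PGM2 was dim, at 182 and 235 units with a difference of 0.75 or 1.68-fold higher, but 0.33 without background correction, and it was also under 1.5-fold with an offset of 50.

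**Figure D4:**
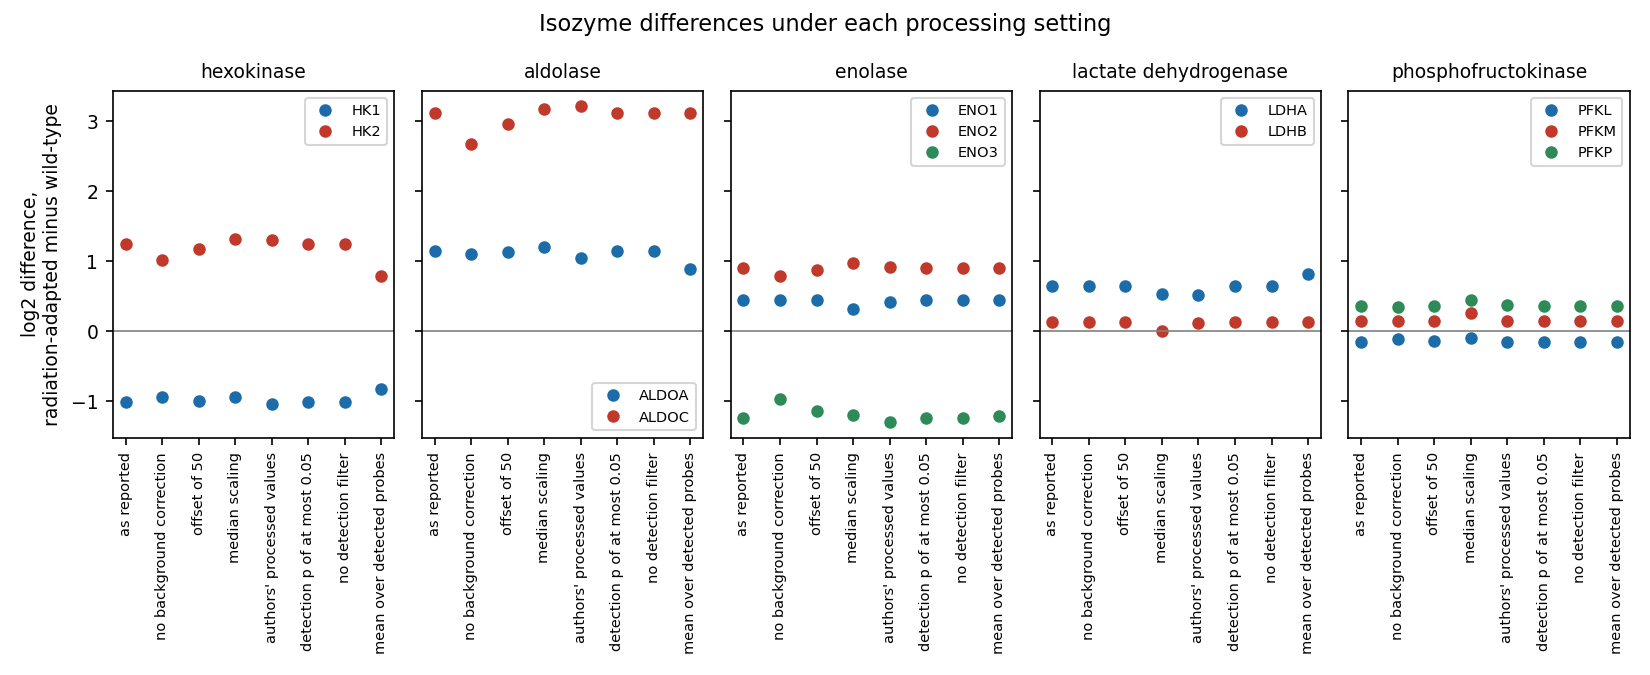
Log2 difference (vertical axis) of the isozymes of 5 steps under the reported processing and 7 alternatives (horizontal axis). HK2 stays above HK1, ALDOC above ALDOA and ENO2 above ENO3 in each setting, while the forms of lactate dehydrogenase and phosphofructokinase lie close together.

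Over the whole group, the motif described above stood in 25 of 77 windows (32.5%), against 18.5% of 35116 windows of all genes. Counted by gene, 22 of 41 members with a window held it in at least 1 window (53.7%), against 21.7% of genes, counting SLC16A3, which has windows but no named probe, and without SLC16A1 and PFKFB2, which have no window in the table. Members had more windows each (77 for 41 members, 35116 for 27305 genes), so genes with a single window are the closer comparison. Among those, 10 of 25 members held it (40.0%), against 18.4% of all such genes. Member windows were richer in G and C, with a median of 67.2% against 58.0%, and the motif contains a CG pair. Among windows at or above 67.2%, it stood in 20 of 40 member windows (50%) and in 21.2% of 9578 windows in all. Below 67.2% it stood in 5 of 37 member windows, against 17.5% of all such windows, so the higher share was seen in the GC-rich windows only. Of the 10 members at least 1.5-fold higher, 9 held the motif, with PFKFB4 the exception; of the 2 lower members 0 did, in 9 windows; of 23 members under 1.5-fold with a window, 10 did. The median difference was 0.47 over the 19 measured members with the motif and 0.13 over the 16 without it. This split by difference was not made for all measured genes, so it has no share to stand beside. Windows per gene also differed between these groups of members. The members and the motif were chosen with earlier results of these data known. Whether the motif goes with the differences was not tested. These are matches of letters in a fixed window, and they do not show binding.

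Other genes of the same steps lay around 0 as a group. Of 41 such genes 39 had a named probe and 21 were measured, with a median of -0.05, and 1 passed 1.5-fold above and 1 below. The higher gene was the phosphoglucomutase relative PGM5, at least 2.12-fold higher and not detected in the wild-type array (147 and 199 units), with a bound under 1.5-fold without background correction (0.37 on the log2 scale). The lower gene was PGM2L1 at -0.60, or -0.21 without background correction. Of the glycogen enzymes, the phosphorylase PYGL and the synthase GYS1 both read -0.55. BSG, the chaperone of the lactate transporters, read -0.46, and PCK2, the mitochondrial carboxykinase that draws on oxaloacetate, 0.54. Of 13 measured tricarboxylic acid cycle genes, 1 passed 1.5-fold above and 0 below, with a median of -0.02, and the former was the isocitrate dehydrogenase subunit IDH3A at 0.87 (0.56 without background correction). Of 5 measured glucose transporters, SLC2A1, the main uptake carrier of tumour cells, read 334 and 589 units with a difference of 0.91, while SLC2A8 stood at -0.67 (-0.38 without background correction). SLC2A6 was not detected in the adapted array and was at least 2.33-fold lower, a bound of -0.46 on the log2 scale without background correction. Of 13 measured HIF targets outside glycolysis, 5 passed 1.5-fold above and 4 below, and the median was 0.18. The 3 highest were DDIT4 (1.56), a brake on mTOR, BNIP3 (1.33), which marks mitochondria for removal, and the transcriptional repressor BHLHE40 (1.26, or 0.60 without background correction). The 3 lowest were ANGPTL4 (-2.07), an inhibitor of lipoprotein lipase, and, not detected in the adapted array, NDRG1 (at least 4.60-fold lower) and CA12 (at least 3.08-fold lower), a carbonic anhydrase. Without background correction these were -1.15 for ANGPTL4 and bounds of -1.02 for NDRG1 and -0.67 for CA12, on the log2 scale. Over the mean of detected probes ANGPTL4 stood at -1.38 and the bound of CA12 at -0.80.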

How the data were processed

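Total RNA of 2 A4573 cultures was hybridised to 1 Illumina bead array each, grouped by the cell line label. The deposited table gives for each probe an intensity, per the file headers the average signal before normalisation, and a detection p-value, also as deposited by the authors. Its lowest intensities (100 and 102 units) show no background subtraction. The other deposited table holds intensity values after the authors' own processing; it ranks probes as the first does (Spearman rho 1.00), each column has a median of 10.6, and 27.7% of values lie below 0, so these values are on a linear scale with background removed and 1 shared distribution. Which software and settings the authors used is not stated in the labels or headers.

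Values were made from the deposited intensities with neqc of limma 3.58.1 (R 4.3.3), with an offset of 16, quantile normalisation and log2. Of 47323 probes, the annotation gave 30113 a single gene symbol and 8 several, and left 17202 unlisted; 30074 were found by gene ID in the RefSeq table of GRCh38.p14, used for names. Of a gene's probes detected in both arrays (detection p at most 0.01), or else in 1, the brightest on average (mean of both log2 values) stood for it. Of 11296 measured genes, 9840 were detected in both arrays. Where only 1 array detected a gene, its difference is a bound: the detecting array's value is set against the other array's own reading or its lowest detected value, whichever is higher. Counts use 1.5-fold. With 1 array per group no p-value is given, and the number of arrays limits the precision. The steps were tested on simulated arrays with known changes. Their noise was set below the SD per probe seen here and their changed genes were well detected. The simulation therefore does not cover the dim members. Tables were made with pandas 2.3.3 and numpy 2.4.6 under Python 3.11.15, and plots with matplotlib 3.10.9.

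Every member is accounted for. Other genes of the steps, transporters and cycle genes were named where at least 1.5-fold apart, BSG, PCK2, PYGL, GYS1 and PGAM4 in addition after their values were seen, and HIF targets as the 3 highest and 3 lowest. The members, lists and motif were chosen with earlier results of these data known. The genes whose promoters are printed were chosen after their values were seen.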

Additional observations from a re-analysis of the deposited data

How the results depend on the processing

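The 7 alternatives were no background correction, an offset of 50, median scaling, the authors' processed values, a detection p of at most 0.05, no detection filter and the mean over detected probes. The median difference of the members ranged from 0.24 to 0.32, the number at least 1.5-fold higher from 7 to 11, and the number at least 1.5-fold lower from 2 to 3. The additional lower gene was PFKFB2. Without background correction 7 of 36 members were at least 1.5-fold higher, PFKFB4, PDK3 and PGM2 no longer being so, and the share over all measured genes was then 4.24% higher and 5.81% lower. An offset of 50 left PDK3 and PGM2 under 1.5-fold, and median scaling and the authors' processed values did so for LDHA, while PC passed 1.5-fold (0.61) in the authors' processed values. The mean over detected probes put TPI1 under 1.5-fold (0.58), PGK1 over it (0.80) and PGAM1 below 0 (-0.16), the only change of sign among the members. Between HK2 and HK1 the gap ranged from 1.61 to 2.33, between ENO2 and ENO3 from 1.76 to 2.22, and between ALDOC and ALDOA from 1.57 to 2.23. The median of all genes stayed between -0.02 and 0.01. All settings that quantile-normalise the same ranks give a probe the same sign by construction, so a shared sign among them is no independent support. No paired analysis was possible because each group holds 1 array. For dim probes (PC, PGM2, PFKFB2) the signal over background limits the size of any difference, and the cause of these shifts was not tested.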
